A study of Bos taurus with 5 samples.

Results

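Levels of the genes for ubiquitin-conjugating (E2) enzymes were described in 5 cattle (Bos taurus) RNA-seq libraries, 1 each labelled brain, skin, lung, heart and limb. The genes are the entries of the deposited table whose symbol starts with UBE2, leaving out UBE2C: 34 of 27607 entries. Per the labels' protocols, cells were lysed and their RNA was pre-amplified on a microfluidic chip. The sources used here do not give the animals, their age, strain and sex, the number of cells or any treatment. Each label has 1 library and so no replicate: each difference below describes these libraries, with no error and no p-value, and a difference of label cannot be told apart from a difference of library.

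Ubiquitin is a small protein that is joined to other proteins in a cascade of 3 enzymes. An E1 enzyme activates it, an E2 enzyme carries it on a cysteine, and an E3 ligase brings the loaded E2 to the substrate. The E2 largely sets what kind of chain is built: chains through lysine K48 send proteins to the proteasome, and chains through K63 serve in signalling and DNA repair. A few E2 enzymes carry other modifiers in place of ubiquitin, among them SUMO, NEDD8 and ISG15. Ubiquitin transfer is needed in every cell, and the broadly acting E2 enzymes are found in most tissues.

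Values were taken as FPKM, which scale fragments to the length of the transcript and to the total of mapped fragments, and which allow levels of different genes to be compared. The libraries mostly did not carry the markers of their labels. Of 46 listed marker entries for neurons, keratinocytes, lung alveoli, heart muscle and limb or skeletal muscle, 5 were above 0 under the matching label. By label these were 0 of 11 (brain), 1 of 7 (skin), 0 of 8 (lung), 1 of 10 (heart) and 3 of 10 (limb). Of all 27607 entries, 5109 to 6634 were above 0 by library. The entry under the skin label, KRT10, was at 20.8 FPKM there and above 0 in all 5 libraries, with 27.8 FPKM under the brain label. The entry under the heart label, ACTC1, was at 5.21 FPKM there, against 231 FPKM under the limb label and 57.7 FPKM under the brain label. TNNT1 and ACTA1 stood at 18.1 and 37.6 FPKM under the limb label, against 0 to 1.57 FPKM elsewhere. PRRX1 was lower under the limb label, at 22.8 FPKM, than under the skin label, at 282 FPKM. The libraries are therefore named by label only. Fewer cells of a type and less RNA per cell cannot be told apart in such data. Replication and mitosis genes were far higher in the skin- and lung-labelled libraries, at a summed 1256 and 1602 FPKM over 21 entries, than in the brain-, heart- and limb-labelled libraries, at 68.0 to 135 FPKM. Above 0 were 12 and 18 of the 21 under the skin and lung labels and 3, 5 and 3 under the brain, heart and limb labels. Their part in the values below was not tested.

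Depth is known only in part, because read totals were not analysed here. Where few reads stand behind a gene, the ratio of its values in 2 libraries is that of small whole numbers, up to a constant. Between the heart- and brain-labelled libraries 379 of 3557 genes (10.7%) lay within 0.3% of such a ratio, with whole numbers up to 5, at the best offset between the libraries. At that offset 1 read was worth 1.23 times as much under the heart label as under the brain label. The median over all offsets was 106 genes (2.98%), and another offset reached 346, so the depth read in this way is rough. Of 18 UBE2 entries in the same range of 2 to 200 FPKM, 5 lay on such a ratio. UBE2J2, at 32.85 FPKM under the heart label and 39.95 FPKM under the brain label, stood at 2 to 3, as did UBE2E2 and UBE2O. UBE2J1 stood at 2 to 5 and UBE2D1 at 1 to 3. Values such as 39.95 FPKM can thus rest on a few reads, but a ratio of 2 to 3 also holds for larger multiples of these numbers. A gene listed at 0 can be expressed below what these libraries could show.

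The E2 genes as a whole were widely detected, though many were listed at 0 in some library. Of the 34 entries, 32 were above 0 in at least 1 library, against 35.8% of all entries in the table, and 29 reached 10 FPKM in at least 1, against 27.2% of all. Above 0 in all 5 libraries were 15, against 2607 of all 27607 entries, and in exactly 4 libraries 12. Listed at 0 in 1 to 4 libraries were 17. At 1 FPKM or more in all 5 libraries stood 14 of the 34 entries, against 8.9% of all entries in the table. Among entries that reached 10 FPKM in at least 1 library, the same held for 14 of 29 E2 entries and 32.6% of all. UBE2U and UBE2QL1 were listed at 0 throughout. By library, 31 entries were above 0 under the brain label, 27 under the skin, lung and heart labels and 23 under the limb label. Of the 29 entries that reached 10 FPKM in some library, 1 was listed at 0 under the brain label, against 24.7% of all such entries, 3 under the skin label, against 38.9%, 3 under the lung label, against 30.4%, 5 under the heart label, against 25.5%, and 8 under the limb label, against 37.4%. The median of the means over the 5 libraries was 46.2 FPKM for the 32 entries with a mean of at least 1 FPKM, against 13.9 FPKM for the 8694 such entries of the table.

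**Figure D1:**
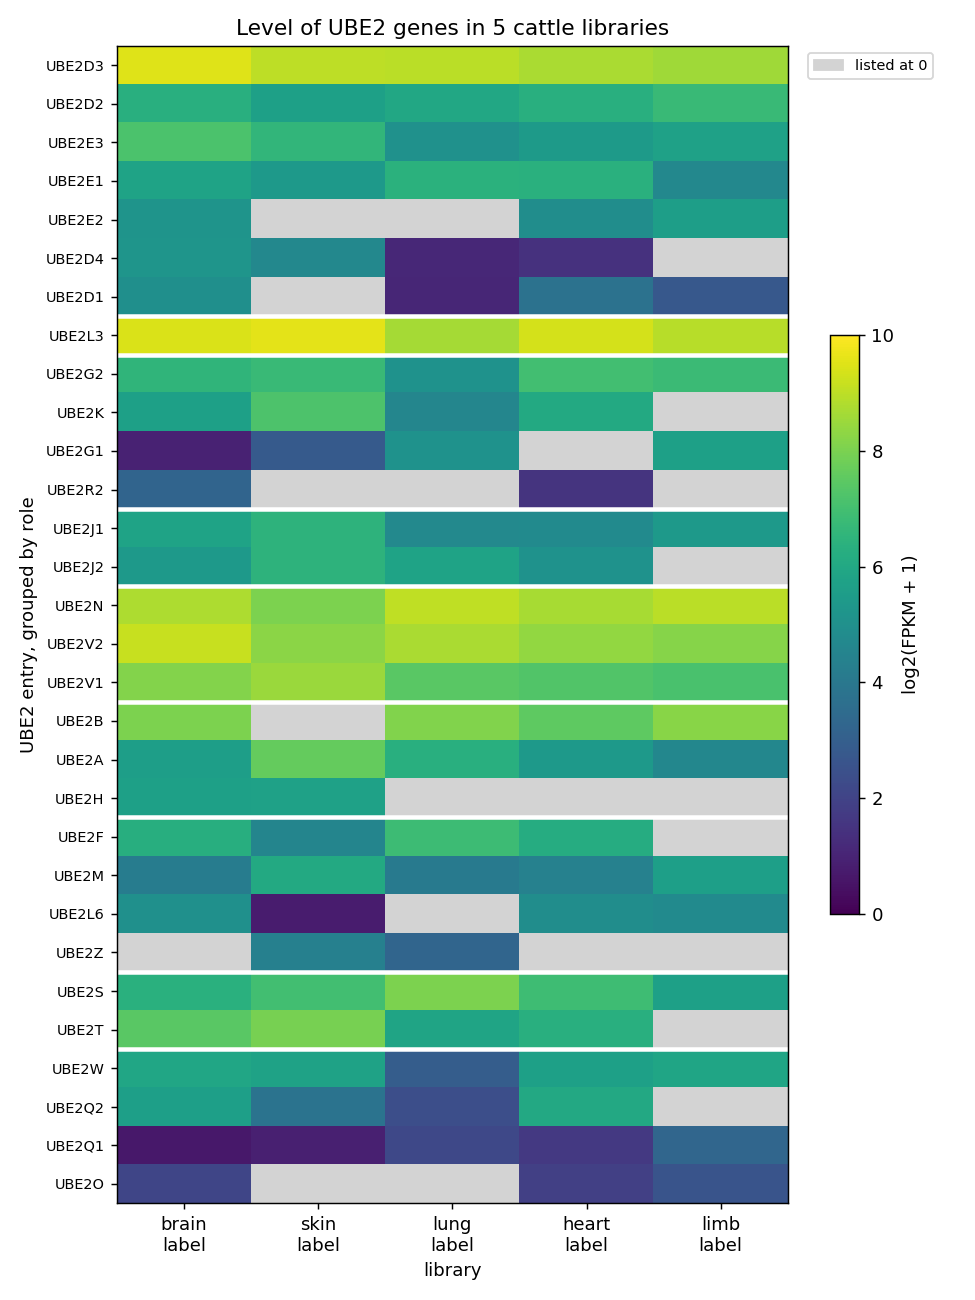
Level of 30 of the detected UBE2 entries (rows, grouped by role with white lines between groups) in the 5 libraries (columns), as log2(FPKM + 1), with values listed at 0 in grey. UBE2L3, UBE2D3, UBE2N, UBE2V2 and UBE2V1 are bright in all 5 columns, and the limb-labelled column has 9 grey cells among the 30 rows.

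The summed level of the 34 entries was 4187 FPKM under the brain label, 3703 FPKM under the skin label, 3245 FPKM under the lung label, 3145 FPKM under the heart label and 2785 FPKM under the limb label. That was 0.390% of all FPKM under the brain label, the highest share, and 0.247% under the limb label, the lowest. The sum rested on few genes: the 5 highest entries of each library took between 59.5% of it, under the skin label, and 70.0%, under the limb label. UBE2L3, UBE2D3, UBE2N and UBE2V2 were among these 5 in every library, joined by UBE2V1 under the brain and skin labels and by UBE2B under the lung, heart and limb labels.

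**Figure D2:**
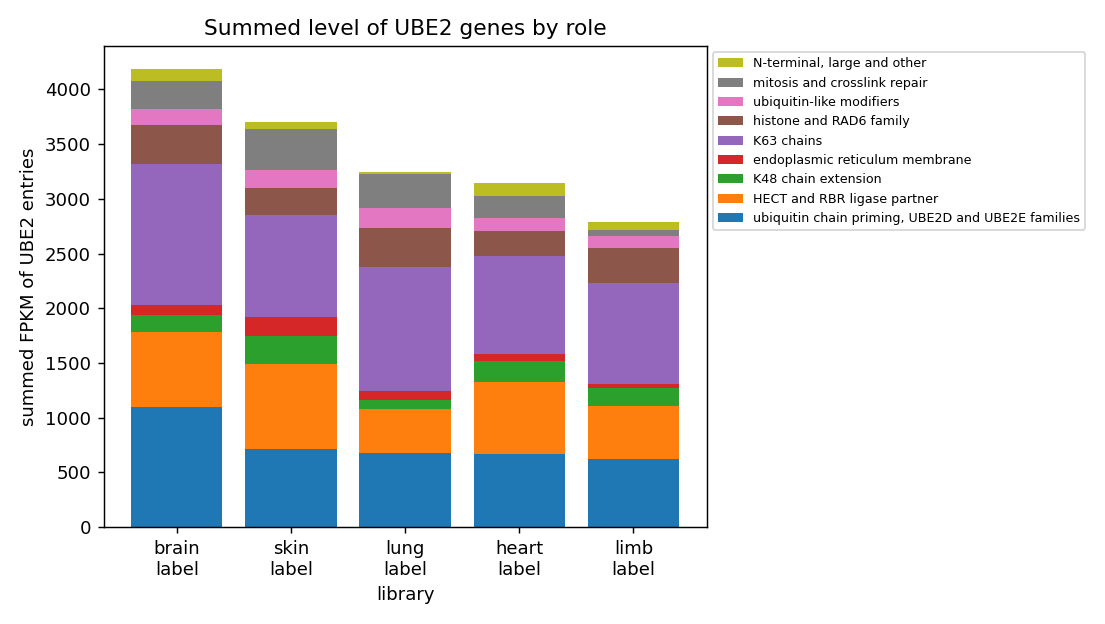
Summed FPKM of the 34 UBE2 entries in each library, stacked by the role of the enzyme. The K63 chain enzymes make up the largest block under every label, and the total is highest under the brain label (4187 FPKM) and lowest under the limb label (2785 FPKM).

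The enzymes that start chains with many E3 ligases were led by UBE2D3, a broadly acting E2 that works with RING-type ligases. UBE2D3 stood at 720 FPKM under the brain label, 507 FPKM under the skin label, 500.04 FPKM under the lung label, 421 FPKM under the heart label and 381 FPKM under the limb label. Its highest value was 1.89 times its lowest. The closely related UBE2D2 was lower throughout, at 78.1, 51.1, 62.6, 78.3 and 109.7 FPKM in the same order of labels (brain, skin, lung, heart, limb). UBE2D3 thus took most of the summed level of the 4 UBE2D genes, between 76.7% under the limb label and 88.5% under the lung label. UBE2D1 and UBE2D4 were low and uneven: UBE2D1 stood at 30.4 FPKM under the brain label, 12.5 FPKM under the heart label, 5.75 FPKM under the limb label and 1.09 FPKM under the lung label and was listed at 0 under the skin label. UBE2D4 stood at 35.7 and 24.7 FPKM under the brain and skin labels and at 0 to 1.69 FPKM under the other 3. The UBE2D genes are close relatives, so how reads were divided among them is uncertain.

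The UBE2E enzymes have an added N-terminal stretch before the conjugating domain and also act with RING-type ligases. UBE2E3 was highest in the brain-labelled library, at 142 FPKM, followed by 94.3 FPKM under the skin label, and lay between 32.0 and 52.4 FPKM in the other 3. UBE2E1 lay between 24.3 FPKM under the limb label and 83.0 FPKM under the lung label. UBE2E2 was at 35.3, 29.0 and 47.1 FPKM in the brain-, heart- and limb-labelled libraries and listed at 0 in the skin- and lung-labelled ones. The family sum differed less than UBE2E2 or UBE2E3, at 115 FPKM under the lung label to 232 FPKM under the brain label. How reads were divided among the UBE2E genes was not tested.

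UBE2L3, which charges HECT and RING-between-RING ligases such as those of the Parkin type, had the highest mean of the E2 genes, 601 FPKM. It stood at 690 FPKM under the brain label, 770 FPKM under the skin label, 397 FPKM under the lung label, 661 FPKM under the heart label and 485 FPKM under the limb label. All 5 values lay within a ratio of 1.94.

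The K63 chain enzymes were high and steady. UBE2N is the catalytic E2 of these chains, and UBE2V1 and UBE2V2 are its partners, which have the E2 fold but lack the active cysteine. UBE2N stood at 430, 262, 534, 416 and 495 FPKM under the brain, skin, lung, heart and limb labels. UBE2V2 stood at 572, 307, 424, 329 and 291 FPKM in the same order, and UBE2V1 at 284, 356, 174, 156 and 140 FPKM. UBE2N was lowest in the skin-labelled library, where UBE2V1 was highest. The summed level of the partners was 2.53 times that of UBE2N under the skin label and 1.99 times under the brain label, against 0.871 to 1.17 times under the other 3. UBE2V2 took 66.8% to 70.9% of the partners' sum in 4 libraries and 46.3% in the skin-labelled one. How reads were divided between UBE2V1 and UBE2V2 was not tested.

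**Figure D3:**
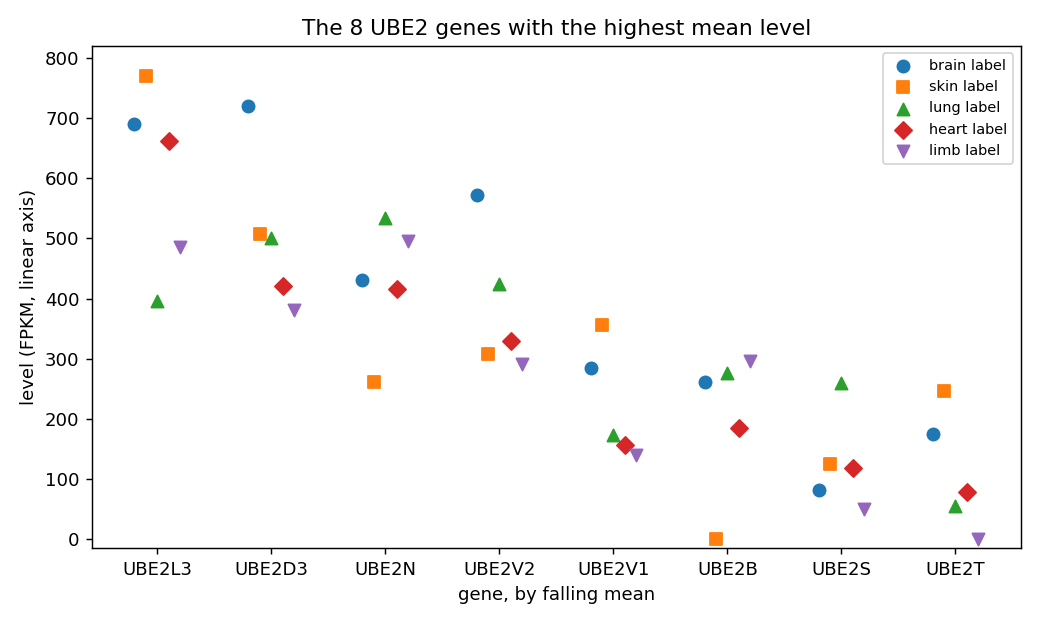
FPKM on a linear axis of the 8 UBE2 genes with the highest mean, with 1 marker per library. The first 5 genes keep all markers above 140 FPKM, while UBE2B lies at 0 under the skin label and UBE2T at 0 under the limb label.

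Enzymes that extend K48 chains were less even. UBE2G2, which acts in the disposal of misfolded proteins of the endoplasmic reticulum, lay between 92.6 and 124 FPKM in 4 libraries and at 33.2 FPKM in the lung-labelled one. Its relative UBE2G1 went another way, at 50.5 FPKM under the limb label and 33.1 FPKM under the lung label, against 6.2 FPKM under the skin label, 0.95 FPKM under the brain label and 0 under the heart label. UBE2K, which builds K48 chains through an added ubiquitin-binding domain, stood at 147 FPKM under the skin label, 67.0 FPKM under the heart label, 50.2 FPKM under the brain label and 23.3 FPKM under the lung label, and was listed at 0 under the limb label. UBE2R2, an E2 of cullin ligases, was at 8.35 FPKM under the brain label and 1.87 FPKM under the heart label and listed at 0 elsewhere. Of the pair anchored in the membrane of the endoplasmic reticulum, UBE2J1 lay between 25.3 and 87.9 FPKM and was never listed at 0. UBE2J2 lay at 32.9 to 87.4 FPKM in 4 and was listed at 0 under the limb label. Both were highest in the skin-labelled library, where their sum was 175 FPKM, against 40.1 FPKM in the limb-labelled library.

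UBE2A and UBE2B, the vertebrate forms of yeast RAD6, mark histone H2B and the sliding clamp PCNA with ubiquitin. UBE2B stood at 296 FPKM under the limb label, 276 FPKM under the lung label, 262 FPKM under the brain label and 185 FPKM under the heart label, and was listed at 0 under the skin label. UBE2A was highest in that same skin-labelled library, at 197 FPKM, against 78.3 FPKM under the lung label, 47.2 FPKM under the brain label, 41.3 FPKM under the heart label and 23.8 FPKM under the limb label. UBE2B thus took 77.9% to 92.6% of the pair's sum in 4 libraries and none of it under the skin label. The sum itself stayed between 197 FPKM under the skin label and 354 FPKM under the lung label, a ratio of 1.80. The 2 genes are close relatives, so reads may have been divided unevenly between them, which was not tested. UBE2H, the E2 of the CTLH ligase, was at 50.1 and 51.1 FPKM in the brain- and skin-labelled libraries and listed at 0 in the other 3.

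**Figure D4:**
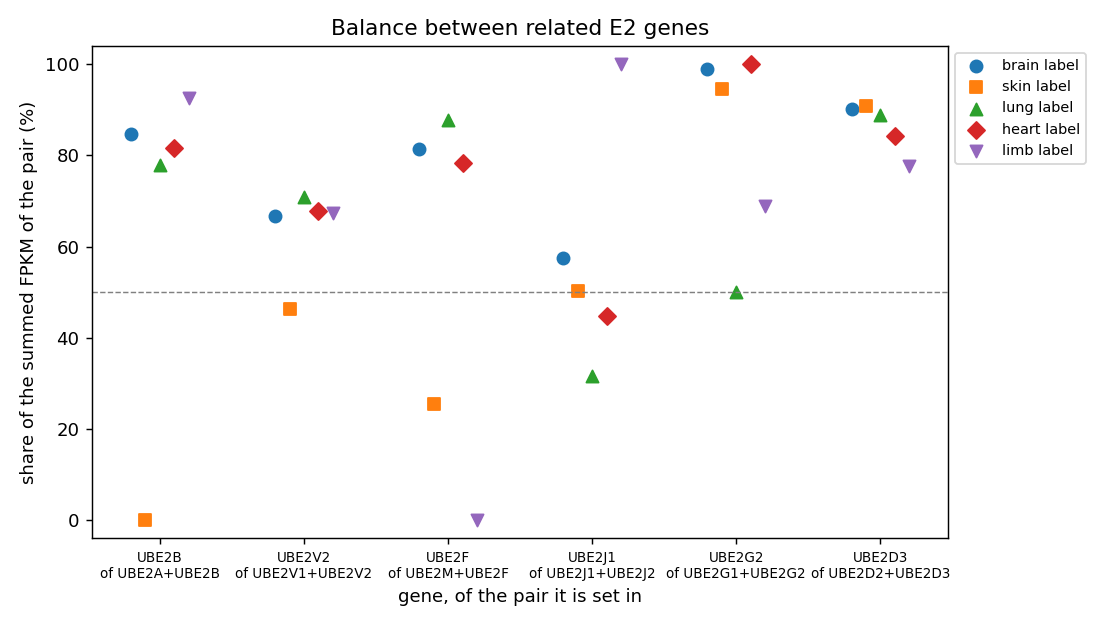
Share of the first-named gene in the summed FPKM of a pair of related E2 genes, in percent, with 1 marker per library and a dashed line at 50%. UBE2B lies at 0% under the skin label against 77.9% or more elsewhere, UBE2F lies at 25.5% under the skin label and 0% under the limb label, and UBE2D3 stays at 77.6% or more of its pair with UBE2D2 under every label.

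The E2 enzymes of ubiquitin-like modifiers reached at most 115 FPKM, and 5 of their 6 entries were listed at 0 in at least 1 library. At 1 FPKM or more in all 5 libraries was 1 of the 6, beside 32.6% of all entries that reached 10 FPKM in some library. With 6 entries, nothing particular to this group is read from the count. For NEDD8, which activates cullin ligases, the genes are UBE2M and UBE2F. UBE2F stood at 115 FPKM under the lung label, 75.7 FPKM under the brain label, 71.5 FPKM under the heart label and 22.5 FPKM under the skin label, and was listed at 0 under the limb label. UBE2M was highest in the libraries where UBE2F was low, at 65.6 FPKM under the skin label and 49.6 FPKM under the limb label, against 16.1 to 19.8 FPKM in the other 3. RBX1, the RING subunit that UBE2M serves, lay at 260 to 483 FPKM, and RNF7, the one that UBE2F serves, at 48.03 to 226 FPKM, with 114 FPKM under the limb label. NEDD8 itself varied little, at 1158 to 1617 FPKM.

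UBE2L6, the E2 of the interferon-induced modifier ISG15, stood at 31.6, 29.1 and 26.6 FPKM under the brain, heart and limb labels, at 0.7 FPKM under the skin label and at 0 under the lung label. Interferon-response genes, 16 entries with ISG15 among them, had a higher sum in those same 3 libraries, at 5109 FPKM under the brain label, 2305 FPKM under the heart label and 7662 FPKM under the limb label, against 879 FPKM under the skin label and 1609 FPKM under the lung label. Above 0 were 12, 8 and 9 of the 16 under the brain, heart and limb labels and 8 each under the skin and lung labels. That order rested on IFI6, at 2296, 1538 and 4758 FPKM under the brain, heart and limb labels, against 411 and 362 FPKM under the skin and lung labels, and on IFI27, at 1784 FPKM under the limb label. Without both, a choice made after seeing the values, the sum of the other 14 entries was 2787, 768 and 1120 FPKM under the brain, heart and limb labels, against 468 and 1247 FPKM under the skin and lung labels, so the lung-labelled library then stood above the heart- and limb-labelled ones. The part of these genes in the level of UBE2L6 was not tested. Among them IFIT1, an antiviral RNA-binding protein, was at 194, 173 and 97.9 FPKM under the brain, heart and limb labels and listed at 0 under the skin and lung labels. MX1 and OAS1Y, which act against viruses, were higher under the lung label, at 175 and 506 FPKM, than under the heart label, at 101 and 229 FPKM, or the limb label, at 74.7 and 436 FPKM. ISG15 had another order: it was at 333 FPKM under the brain label, 47.3 FPKM under the lung label and 9.77 FPKM under the heart label and listed at 0 under the skin and limb labels. UBA7, the E1 of ISG15, was listed at 22.5 FPKM under the lung label, where UBE2L6 was at 0, and at 0 elsewhere. UBE2Z, which is charged by the E1 enzyme UBA6 and also carries the modifier FAT10, was at 19.4 FPKM under the skin label and 8.48 FPKM under the lung label and listed at 0 in the other 3. UBA6 was at 1.10, 0, 1.57, 7.21 and 16.6 FPKM under the brain, skin, lung, heart and limb labels.

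UBE2S and UBE2T belong to division and repair. UBE2S, which extends chains for the anaphase-promoting complex, peaked under the lung label at 259 FPKM, followed by 125 FPKM under the skin label, 119 FPKM under the heart label, 81.4 FPKM under the brain label and 50.2 FPKM under the limb label. UBE2T, the E2 of the Fanconi anaemia pathway of crosslink repair, had another order: 246 FPKM under the skin label, 175 FPKM under the brain label, 77.7 FPKM under the heart label, 56.0 FPKM under the lung label and 0 under the limb label. The summed proliferation genes were at 1256 FPKM under the skin label, 68.0 FPKM under the brain label, 92.3 FPKM under the heart label, 1602 FPKM under the lung label and 135 FPKM under the limb label. UBE2T was highest in the skin-labelled library, where the sum of proliferation genes was also high. It was higher in the brain-labelled library, which had the lowest sum, than in the lung-labelled library, which had the highest. The part of proliferation in the level of UBE2T was not tested. FANCL, the ligase that UBE2T serves, was highest under the limb label, at 122 FPKM, where UBE2T was listed at 0.

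The remaining members were mostly low. UBE2W, which joins ubiquitin to the N-terminus of proteins, lay at 50.3 to 60.0 FPKM in 4 libraries and at 6.7 FPKM in the lung-labelled one. UBE2Q2 stood at 65.0 FPKM under the heart label and 48.7 FPKM under the brain label, against 12.9 FPKM under the skin label, 4.27 FPKM under the lung label and 0 under the limb label. UBE2Q1 was above 0 in all 5 libraries but at no more than 8.73 FPKM. UBE2O, a large enzyme with both E2 and E3 activity, was at 2.72 to 5.01 FPKM under the brain, heart and limb labels and listed at 0 under the skin and lung labels.

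Differences between the libraries were then counted by rules of size. A gene was called higher in 1 library when it reached 10 FPKM there and its value plus 1 was at least 4 times the highest of the other 4 plus 1, a ratio that understates the change of low genes. No E2 entry (0 of 29 that reached 10 FPKM in at least 1 library) was called so, against 24.1% of all 7497 such entries and 6.54% of the whole table. Higher calls were not compared at matched level, and the E2 entries had a higher median level than all entries. Nothing particular to the E2 genes is therefore read from the 0. With a library left out, 3 E2 calls appeared without the brain-labelled library, 3 without the lung-labelled, 2 without the skin-labelled, 1 without the heart-labelled and 1 without the limb-labelled library. In the same order, all entries gave 2114, 1940, 1897, 2068 and 1898 calls, against 1806 with all 5 libraries. A gene was called lower in 1 library when each of the other 4 libraries reached 10 FPKM and, with 1 added to both values, 4 times its level there. This held for 6 of the 29 E2 entries, against 11.2% of all and 3.03% of the whole table: UBE2T, UBE2K, UBE2F and UBE2J2 under the limb label, UBE2B under the skin label and UBE2W under the lung label. The 4 under the limb label stand beside 3.17% of all entries called there, the 1 under the skin label beside 3.63% and the 1 under the lung label beside 2.52%. Under the brain and heart labels 0 E2 entries were called lower, beside 0.707% and 1.12% of all. Without the limb-labelled library 2 calls were made in place of 6, beside 1024 in place of 836 over all entries. Counts of this kind depend on level. At a mean of 200 FPKM or more 1 of 6 E2 entries was called lower in some library, against 5.21% of all, at 100 to 200 FPKM 1 of 2, against 19.5%, at 50 to 100 FPKM 2 of 7, against 31.4%, at 20 to 50 FPKM 2 of 7, against 25.1%, and at 10 to 20 FPKM 0 of 5, against 4.94%.

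The highest value was at least 4 times the lowest, after adding 1 to both, for 19 of the 29 E2 entries, against 83.8% of all. The share fell with level over all entries. At a mean of 200 FPKM or more it held for 1 of 6 E2 entries (UBE2B) and 26.3% of all, and at 100 to 200 FPKM for 2 of 2 (UBE2S and UBE2T) and 59.2%. At 50 to 100 FPKM it held for 4 of 7 E2 entries and 77.2% of all, at 20 to 50 FPKM for 5 of 7 and 90.7%, and at 10 to 20 FPKM for 5 of 5 and 96.7%. The shares of E2 entries within a range rest on 2 to 7 entries each, so nothing particular to the E2 genes is read from them. The 8 steadiest among the entries above 0 in all 5 libraries were UBE2D3, UBE2L3, UBE2V2, UBE2N, UBE2D2, UBE2V1, UBE2E1 and UBE2J1, with a highest value 1.89 to 3.47 times the lowest.

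**Figure D5:**
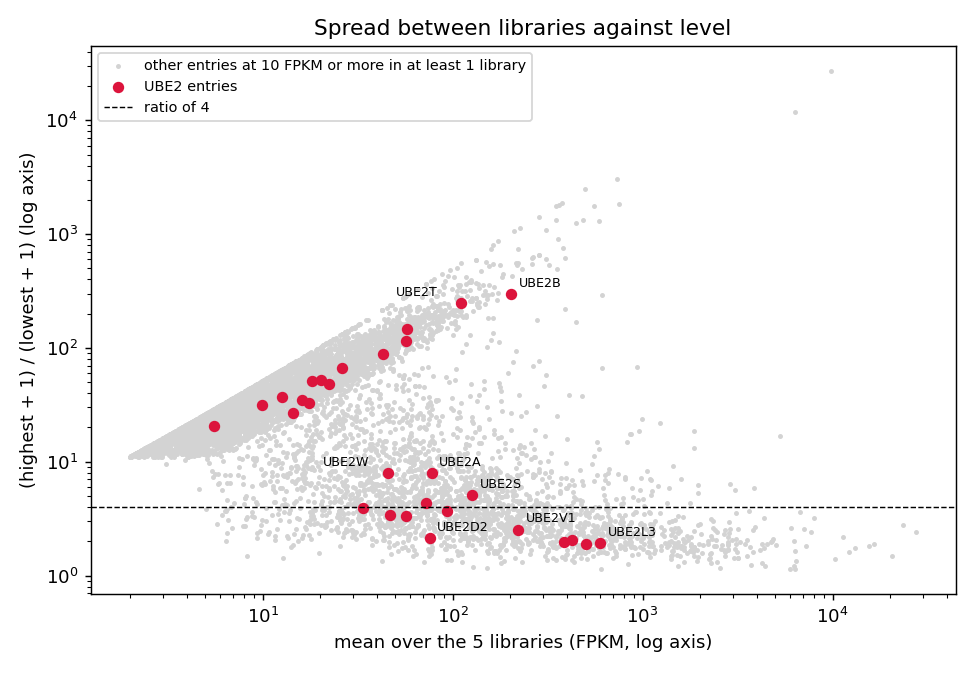
Ratio of the highest to the lowest of the 5 libraries, each plus 1, against the mean FPKM (both log axes), for UBE2 entries (red) and the other entries that reached 10 FPKM in at least 1 library (grey), with a dashed line at a ratio of 4. UBE2B and UBE2T stand high among genes of their level with 1 library at 0 each, and UBE2L3 lies below the line.

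Pair by pair, the brain- and heart-labelled libraries were the most alike in their E2 genes, as they were over all entries. Of the 25 E2 entries that reached 10 FPKM in either, 2 were at least 4 times apart, against 37.0% of all: UBE2H and UBE2D4, both higher under the brain label. By this count the skin- and limb-labelled libraries were the least alike, again as over all entries, with 13 of 28 apart (46.4%), against 53.6% of all. Of these, 9 were higher under the skin label (UBE2H, UBE2D4, UBE2Q2, UBE2T, UBE2J2, UBE2Z, UBE2K, UBE2F and UBE2A) and 4 under the limb label (UBE2B, UBE2L6, UBE2G1 and UBE2E2). The brain-labelled library was apart from the skin-labelled in 6 of 28 E2 entries, against 49.5% of all, from the lung-labelled in 9 of 28, against 46.2%, and from the limb-labelled in 9 of 28, against 45.7%. The skin-labelled library was apart from the lung-labelled in 8 of 26, against 51.6%, and from the heart-labelled in 11 of 28, against 50.9%. The lung-labelled library was apart from the heart-labelled in 8 of 26, against 48.2%, and from the limb-labelled in 8 of 24, against 53.1%, and the heart-labelled from the limb-labelled in 8 of 26, against 45.9%. The E2 entries had a higher median level than all entries, and their lower shares were not compared at matched level. Across the 32 E2 entries with a mean of at least 1 FPKM, Spearman's correlation of levels was 0.906 between the brain- and heart-labelled and 0.43 between the skin- and limb-labelled libraries. Across all 8694 such entries it was 0.618 and 0.499. These correlations are across genes that share a library and are not independent replicates.

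As a measure of the whole set, the median over the 32 entries of the difference in log2(FPKM + 1) between a library and the average of the other 4 was 0.73 under the brain label, 0.34 under the skin label, -0.21 under the lung label, 0.13 under the heart label and -0.33 under the limb label. Over all 8694 entries it was 0.15, -0.73, -0.16, -0.01 and -0.67 in the same order. The values over all entries depended on the minimum: with a mean of at least 10 FPKM they were 0.36, 0.03, 0.31, 0.12 and -0.03, against 0.68, 0.50, -0.14, 0.11 and -0.33 for the E2 entries. The E2 median under the limb label thus lay above that of all entries at the lower minimum and below it at the higher. These medians depended on which libraries entered. Under the brain label the value was 0.41 without the limb-labelled library, and under the skin label 0.61 without the brain-labelled and 0.59 without the heart-labelled library. Under the lung label it was 0.17 without the brain-labelled, -0.02 without the skin-labelled and -0.66 without the limb-labelled library. Under the heart label it was -0.08 without the skin-labelled, -0.06 without the limb-labelled, 0.02 without the brain-labelled and 0.05 without the lung-labelled library, and 0.30 after rescaling the libraries by their median ratio. Under the limb label it was 0.035 without the brain-labelled and -0.53 without the heart-labelled library.

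Other genes of the cascade gave the setting of the E2 genes. Ubiquitin itself was abundant, with UBB at 3826 to 7037 FPKM and the fusion gene RPS27A at 3366 to 6626 FPKM. Of the 9 E1 entries, 4 were at 1 FPKM or more in all 5 libraries, beside 8.9% of all entries. Among entries that reached 10 FPKM in some library, the same held for 4 of 8 E1 entries and 32.6% of all. Of the 8 that reached 10 FPKM in some library, 1 was called higher in a library (UBA7 under the lung label), beside 24.1% of all, and 1 lower (UBA1 under the skin label), beside 11.2%. UBA1, the main E1 of ubiquitin, was listed at 0 there and at 12.0 to 37.4 FPKM elsewhere. Of 8 entries with the E2 fold but other names, 7 reached 10 FPKM in some library, and of these 1 was called higher and 2 lower, beside the same 24.1% and 11.2%. Those called lower were CDC34, an E2 of cullin ligases, and ATG3, the E2 of the autophagy modifier LC3, both under the limb label: CDC34 at 7.47 FPKM against 49.9 to 149 FPKM in the other 4, and ATG3 at 9.53 FPKM against 85.3 to 183 FPKM. Of 27 entries for ligase subunits and partners, 9 were at 1 FPKM or more in all 5 libraries, beside 8.9% of all. Among entries that reached 10 FPKM in some library, this held for 9 of 23 ligase entries and 32.6% of all. Of the 23 that reached 10 FPKM in some library, 2 were called higher and 3 lower, beside 24.1% and 11.2%. Those called higher were DCUN1D1 under the lung label, where UBE2F was also highest, and CUL4A under the skin label. Those called lower were CUL2 under the limb label and CUL3 and TRAF6 under the lung label. TRAF6, the ligase that works with UBE2N in signalling, was at 102 FPKM under the brain label, 19.3 to 35.2 FPKM under the skin, heart and limb labels and 0 under the lung label, where UBE2N was highest.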

How the data were processed

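RNA was measured in 5 libraries, 1 per tissue label. The submitters' processing notes name bcl2fastq, STAR for alignment, RSEM for expression estimates and the ARS-UCD1.2 build, with no versions. A single table of 27607 entries was deposited by the authors. Its unit is not named in the table, and the deposited values were taken as FPKM by elimination: 98.7% to 99.1% of the values above 0 were not whole, and the libraries summed to 1072430 to 1172798, more than the fixed total of TPM.

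No count model and no test were applied, since each label has 1 library. Calls used a minimum of 10 FPKM, a ratio of 4 and 1 added to each value; detection was counted at 1 FPKM. The rules were tried on simulated data, which does not show how they behave on the spread of these libraries. How often missed RNA or noise of a library gives a call here was not tested. Members, gene lists and rules were chosen with earlier results of these data known. Full values, with 2 entries left out that are not reported here, are given for genes called lower, the 8 highest, the 8 steadiest and the role groups described. Python 3.11.15, numpy 2.4.6 and pandas 2.3.3 were used. Counts were not recovered, so no counting interval is given.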

Additional observations from a re-analysis of the deposited data

How the results depend on the processing

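Of 99 recomputed values, 76 stayed within 1.5 times the count or within 0.2 of the median difference. The number of E2 entries detected in all 5 libraries (14) and of those differing at least 4 times (19) stayed so under each alternative run, at 13 to 15 and 15 to 26. Over all entries the same counts were 2456 and 6285, and 1846 to 2607 and 4896 to 7282 under the alternatives. The 0 calls of a higher library became 5 at a ratio of 2, 6 against the mean of the other 4, and 1 to 3 with a library left out. In the whole table the 1806 such calls became 3283, 3721 and 1897 to 2114. The 6 calls of a lower library became 24 against the mean of the other 4, 2 without the limb-labelled library, and 2 to 8 over all libraries left out. In the whole table the 836 such calls became 7466, 1024 and 1024 to 1055. Calls are summed over the 5 libraries, so against the mean an entry can be called in more than 1 library. The median difference moved more. Under the brain label (0.73) it was 0.52 with a pseudocount of 5 and 0.31 against the median of the other 4, and under the skin label (0.34) 0.60 with a pseudocount of 0.1 and 0.12 against that median. Against the median it was -0.54 under the lung label and -0.14 under the heart label. With a library left out it ranged from 0.41 to 0.74 under the brain label, 0.38 to 0.61 under the skin label, -0.66 to 0.17 under the lung label, -0.08 to 0.05 under the heart label and -0.53 to 0.035 under the limb label. The cause was not tested. Rescaling by the median ratio moved the heart-labelled library by 0.14 on the log2 scale, and the median difference under that label to 0.30 (0.29 with the trimmed mean), against 0.13. No paired analysis was possible because each label has 1 library. For a gene listed at 0, absence of its RNA and RNA that was missed cannot be told apart here.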

Other observations

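Enzymes that remove ubiquitin and its relatives were counted in the same way. Of 15 entries, 8 were at 1 FPKM or more in all 5 libraries, beside 8.9% of all entries. Among entries that reached 10 FPKM in some library, the same held for 8 of 13 and 32.6% of all. Of the 13 that reached 10 FPKM in some library, 0 were called higher in a library, beside 24.1% of all, 2 lower, beside 11.2%, and 8 differed at least 4 times between the highest and lowest library, beside 83.8%. These counts were not compared at matched level. UCHL1, a ubiquitin hydrolase best known from neurons, stood at 918, 1226, 1271, 1572 and 2416 FPKM under the brain, skin, lung, heart and limb labels, although neuron markers were nearly all listed at 0. PSMD14 (Rpn11), the deubiquitinase of the proteasome, lay at 179 to 344 FPKM, and OTUB1, which binds and inhibits UBE2N, at 196 to 372 FPKM. UCHL5, another proteasome-bound hydrolase, was called lower under the limb label, at 3.65 FPKM against 39.0 to 88.8 FPKM in the other 4. USP18, the protease that removes ISG15, was called lower under the skin label, at 18.2 FPKM against 149 to 519 FPKM in the other 4. Of 8 fibroblast markers, 4 were above 0 in every library, and of 6 macrophage and lymphocyte markers 0 were above 0 in any.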
